A study of Mus musculus with 8 samples.

Results

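The comparison described here concerns cultured hippocampal neurons given siRNA against Rbfox1 and Rbfox3. It sets those that carried the cytoplasmic splice isoform of Rbfox1 against those with the same knockdown and no Rbfox1 vector. It holds 4 of the 8 samples of the series, 2 in the cytoplasmic rescue and 2 in the knockdown. The members are all genes and cassette exons of the expression table and the splicing table that the authors made for this pair of groups. They comprise 12526 genes with an FPKM (sequenced fragments, scaled by the length of the transcript and the size of the library) of at least 1 in either group, of 15598 listed, and 150 cassette exons.

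The neurons were primary mouse hippocampal cultures, and their total RNA was depleted of ribosomal RNA and sequenced without strand information. All groups received an adeno-associated virus of serotype 2/9 at 9 days in vitro, driven by the neuronal synapsin I promoter, and Accell siRNA from day 10 for 4 days. RNA was taken at day 14. The cytoplasmic rescue carried AAV2/9-SynI-Flag-Rbfox1_C_siMt together with siRNA against Rbfox1 and Rbfox3. The nuclear rescue, used here only where the cytoplasmic values are set beside it, carried AAV2/9-SynI-Flag-Rbfox1_N_siMt with the same siRNA. The knockdown carried AAV2/9-SynI-EGFP with that siRNA, and the control carried AAV2/9-SynI-EGFP with non-targeting siRNA. Virus and siRNA exposure were therefore common to all groups, and the promoter confines the added Rbfox1 to neurons while the siRNA has no such restriction stated. Each value below is the authors' single value for a group in which the 2 samples are already combined. No spread between samples can be given, and no label says whether the samples came from separate cultures.

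Rbfox proteins are RNA-binding regulators that recognise the sequence GCAUG, often preceded by U. Their nuclear isoforms bind introns beside alternative exons and act on splicing, typically favouring an exon when they bind downstream of it. Splice isoforms of Rbfox1 that lack the nuclear localisation signal stay in the cytoplasm, where Rbfox1 has been described to bind 3′ untranslated regions (UTRs) and to raise the level of its target mRNAs. RBFOX1 has been associated with autism and epilepsy, and many of the transcripts it binds encode synaptic and calcium signalling proteins.

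Levels of the targeted genes served as a check of the labels. Rbfox1 measured 16.1 FPKM in the cytoplasmic rescue, 38.2 in the nuclear rescue, 1.94 in the knockdown and 25.7 in the control. The rescue level was thus 62.5% of the control, and a gene FPKM does not separate vector RNA from endogenous RNA. Rbfox3, which no vector supplied, stayed low, with 1.59 FPKM in the cytoplasmic rescue, 1.53 in the nuclear rescue and 1.59 in the knockdown, against 12.4 in the control. Rbfox2, the third member of the family, had 33.2 FPKM in the cytoplasmic rescue, against 42.1 in the knockdown, and was not called.

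Neuronal identity was checked on marker genes. Of 18 pan-neuronal markers measured, none was at 0, none was called, and their summed level was 3851 FPKM in the cytoplasmic rescue and 3887 FPKM in the knockdown. Glial markers were present too: 14 astrocyte markers at 1 FPKM or more, led by Gfap at 477 FPKM in the rescue and 570 in the knockdown, and 13 oligodendrocyte lineage markers, led by Pdgfra at 84.9 FPKM in the rescue and 82.3 in the knockdown. The astrocyte list summed to 2186 FPKM in the rescue, against 2437 in the knockdown, with 1 of 14 markers above a log2 ratio of 0. Of all genes tested, 31.3% were above 0. The oligodendrocyte list summed to 287 FPKM in the rescue and 306 in the knockdown, with 3 of 13 above 0, and the microglia list to 31.0 in the rescue and 28.3 in the knockdown, with 6 of 7 above 0. No marker of these lists was called or at 0. In such bulk RNA, fewer cells of a type and less RNA per cell cannot be told apart, and the part of glial RNA in the results below was not tested.

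More genes rose than fell in the cytoplasmic rescue. By the q below 0.05 of the authors' deposited table, 48 genes rose (0.383% of the 12526 tested) and 25 fell (0.2%), 0.583% in all. Without the minimum of 1 FPKM, 52 of 15598 rose (0.333%) and 27 fell (0.173%), 0.506% in all. At an unadjusted p below 0.05 there were 701 genes, or 5.60% of those tested, in the authors' deposited table. The median log2 ratio of all tested genes, cytoplasmic rescue over knockdown, was -0.06, and 31.3% of genes were above 0. The changes were moderate: 4 of the risen and 2 of the fallen genes changed by 2-fold or more, with median log2 ratios of 0.71 and -0.65. The standard error of a log2 ratio, taken from the authors' fold change and test statistic, had a median of 0.156 over tested genes and ranged from 0.141 to 0.254 over called ones.

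**Figure D1:**
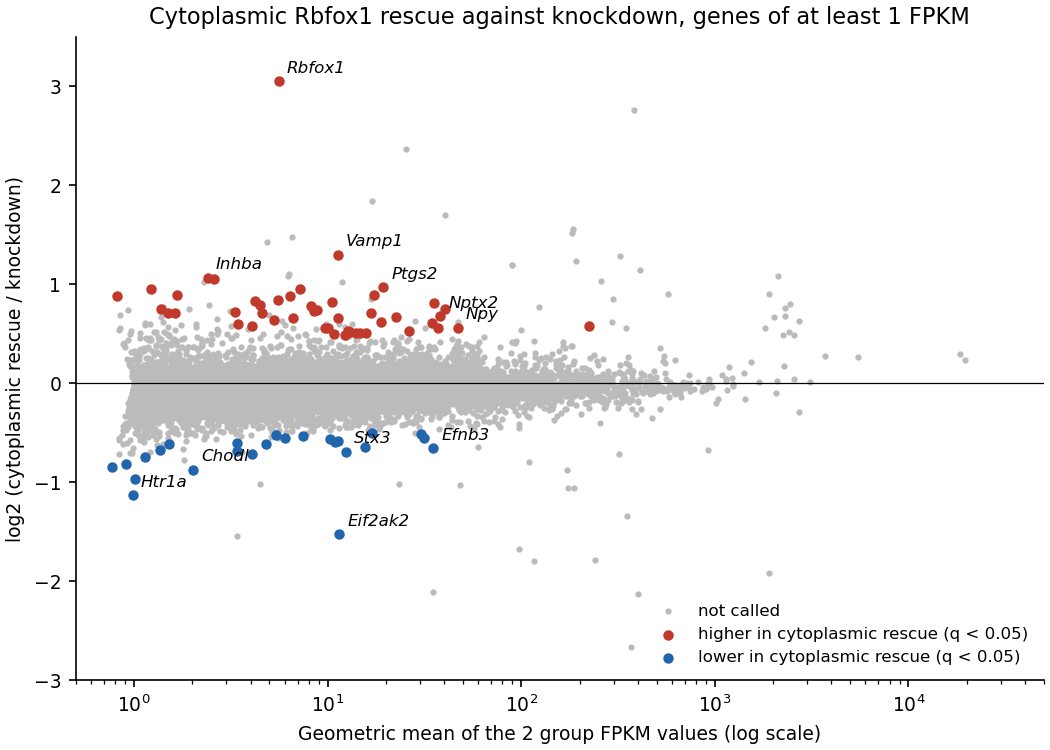
The log2 ratio of cytoplasmic rescue over knockdown (vertical axis) is plotted against the geometric mean of both group FPKM values (horizontal axis, log scale) for each gene of at least 1 FPKM, with the 48 risen genes in red and the 25 fallen genes in blue. Rbfox1 and Vamp1 stand highest among the called genes and Eif2ak2 lowest, while scattered uncalled genes with large authors' errors lie farther out; 83 genes listed at 0 in a group and 3 outside the axes are not drawn.

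Genes of the synaptic vesicle and of exocytosis moved in both directions. Vamp1, which encodes synaptobrevin 1, a vesicle SNARE for transmitter release (chromosome 6, 125165599 to 125172324 in build mm9), had 17.6 FPKM in the cytoplasmic rescue, 26.5 in the nuclear rescue, 7.18 in the knockdown and 33.3 in the control. Its log2 ratio over the knockdown was 1.30, with a standard error of 0.155, the second largest rise after Rbfox1 itself among called genes of at least 1 FPKM. Syt12, a synaptotagmin of synaptic vesicles, had 15.4 FPKM in the rescue, against 10.7 in the knockdown (log2 ratio 0.52). Its mapped locus overlaps that of Rhod, so reads without strand information can be shared. Stx3, a syntaxin of the plasma membrane, fell to 9.78 FPKM in the rescue, against 15.8 in the knockdown, with 9.16 in the nuclear rescue and 7.49 in the control. Of 46 members of the vesicle list at 1 FPKM or more, these 2 rose and this 1 fell, against 0.383% risen and 0.2% fallen of all genes. In the list 27 were above 0 (58.7%, against 31.3% of all genes), and the median log2 ratio was 0.04.

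Calcium and calmodulin signalling genes held 2 rises and no fall among 44 measured, against 0.383% risen and 0.2% fallen of all genes. Of the 44, 29 were above 0 (65.9%, against 31.3% of all genes), and the median log2 ratio was 0.10. Camkk1, a kinase that phosphorylates calmodulin-dependent kinases I and IV (chromosome 11, 72832510 to 72855567 in mm9), had 28.4 FPKM in the cytoplasmic rescue, 19.2 in the nuclear rescue, 17.9 in the knockdown and 25.6 in the control. Cabp7, a neuronal calcium-binding protein of the calmodulin superfamily, had 14.2 FPKM in the cytoplasmic rescue, 11.4 in the nuclear rescue, 9.01 in the knockdown and 18.2 in the control. Both kinase and calcium sensor were lowest in the knockdown. Among 38 voltage-gated channel genes, 1 was called, against 0.583% of all genes. It was Kcnq3, a subunit of the M-type potassium channel and also a member of the autism list. Kcnq3 had 12.7 FPKM in the rescue, against 9.02 in the knockdown (log2 ratio 0.50). The other 35 autism-related genes measured were not called, and the median over the list was -0.05.

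Genes induced by neuronal activity held 3 rises and no fall among 35 measured, against 0.383% risen and 0.2% fallen of all genes. Of the 35, 28 were above 0 (80.0%, against 31.3% of all genes) and 33 were above the median of all genes. The list median was 0.15. Ptgs2, which encodes the inducible prostaglandin synthase cyclooxygenase 2, had 27.1 FPKM in the cytoplasmic rescue, 14.4 in the nuclear rescue, 13.8 in the knockdown and 22.6 in the control. Inhba, the subunit of activin A, had 3.48 FPKM in the cytoplasmic rescue, 1.45 in the nuclear rescue, 1.66 in the knockdown and 2.28 in the control. Nptx2, a secreted pentraxin that clusters AMPA receptors, had 48.2 FPKM in the cytoplasmic rescue, 29.1 in the nuclear rescue, 30.1 in the knockdown and 88.8 in the control. Ptgs2 and Inhba thus exceeded the control in the cytoplasmic rescue, while Nptx2 reached 54.3% of it. The immediate early genes Fos, Arc and Npas4 did not pass. Fos had 54.1 FPKM in the cytoplasmic rescue and 46.3 in the knockdown. Arc had 44.1 FPKM in the cytoplasmic rescue and 33.1 in the knockdown, and Npas4 had 14.9 in the rescue and 15.8 in the knockdown.

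Rises in the remaining lists were in genes of varied function, 2 of them neuropeptide precursors. Npy, the neuropeptide Y precursor of interneurons, had 57.0 FPKM in the cytoplasmic rescue, 41.9 in the nuclear rescue, 38.6 in the knockdown and 155 in the control. Penk, the enkephalin precursor, had 5.59 FPKM in the cytoplasmic rescue, 4.23 in the nuclear rescue, 3.14 in the knockdown and 8.64 in the control. Both were below the control, at 36.9% and 64.7% of it. Of 21 neuropeptide and interneuron genes these 2 were called, against 0.583% of all genes. In that list 10 were above 0 (47.6%, against 31.3% of all genes). Areg, an epidermal growth factor receptor ligand, had 2.27 FPKM in the rescue and 1.22 in the knockdown. Sema4f, a semaphorin, had 4.97 FPKM in the rescue and 3.32 in the knockdown. Herpud1, an endoplasmic reticulum stress protein, had 31.6 FPKM in the rescue and 21.9 in the knockdown. Each was the only riser of its list except Areg, which shared the growth factor and Wnt list with Inhba. Lamp5, a lysosome-associated membrane protein of cortical interneurons listed in the table as 6330527O06Rik, had 3.72 FPKM in the cytoplasmic rescue, 5.27 in the nuclear rescue, 1.80 in the knockdown and 3.68 in the control. Further rises, in Lipi (a lipase), Serpinb2 (a protease inhibitor) and Psg28 (a pregnancy-specific glycoprotein), had log2 ratios of 0.96, 0.88 and 0.88.

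Among the falls, the largest was in Eif2ak2, the double-stranded RNA-activated kinase PKR (chromosome 17, 79249845 to 79281912 in mm9). It had 6.74 FPKM in the cytoplasmic rescue, 6.63 in the nuclear rescue, 19.3 in the knockdown and 7.06 in the control, a log2 ratio of -1.52 with a standard error of 0.186. The knockdown group stood alone here, and the 3 other groups lay between 6.63 and 7.06. The remaining 21 interferon and antiviral genes at 1 FPKM or more were not called. All but 1 of the 22 were below 0, while 31.3% of all genes were above 0. The list median was -0.17, against -0.06 over all genes.

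Receptors and guidance cues made up several other falls. Htr1a, the serotonin 1A receptor, had 0.665 FPKM in the cytoplasmic rescue, against 1.35 in the nuclear rescue, 1.45 in the knockdown and 1.34 in the control, so that the cytoplasmic group stood alone. Ntsr1, a neurotensin receptor, had 1.07 FPKM in the cytoplasmic rescue, 1.51 in the nuclear rescue, 1.71 in the knockdown and 0.572 in the control. Those were the 2 called of 23 neuromodulator receptors, against 0.583% of all genes called. Efnb3, the ligand ephrin-B3 of axon guidance, had 28.0 FPKM in the cytoplasmic rescue, 38.2 in the nuclear rescue, 44.0 in the knockdown and 22.5 in the control. In the adhesion and guidance list Efnb3 fell and Sema4f rose. Of its 46 members, 9 were above 0 (19.6%, against 31.3% of all genes), and the median was -0.12. Fzd7, a Wnt receptor, had 0.880 FPKM in the rescue and 1.47 in the knockdown. Igf2, an insulin-like growth factor, had 6.18 FPKM in the rescue and 8.95 in the knockdown.

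The remaining large falls were in genes of varied function, most of them at low levels. Chodl, a membrane lectin, had 1.49 FPKM in the cytoplasmic rescue and 2.73 in the knockdown. Dsp (desmoplakin), Sec14l3 (a lipid-binding protein) and the pseudogene Gm4926 had log2 ratios of -0.82, -0.85 and -0.96 and were below 1.5 FPKM in both groups. Dcakd and B3galt5, a galactosyltransferase gene, had log2 ratios of -0.71 and -0.68. Kdr, an endothelial receptor, was the single vascular marker called, at 0.271 FPKM in the rescue and 0.489 in the knockdown, below the limit of 1 FPKM. All 9 vascular and fibroblast markers above the limit were below 0, while 31.3% of all genes were above 0.

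**Figure D2:**
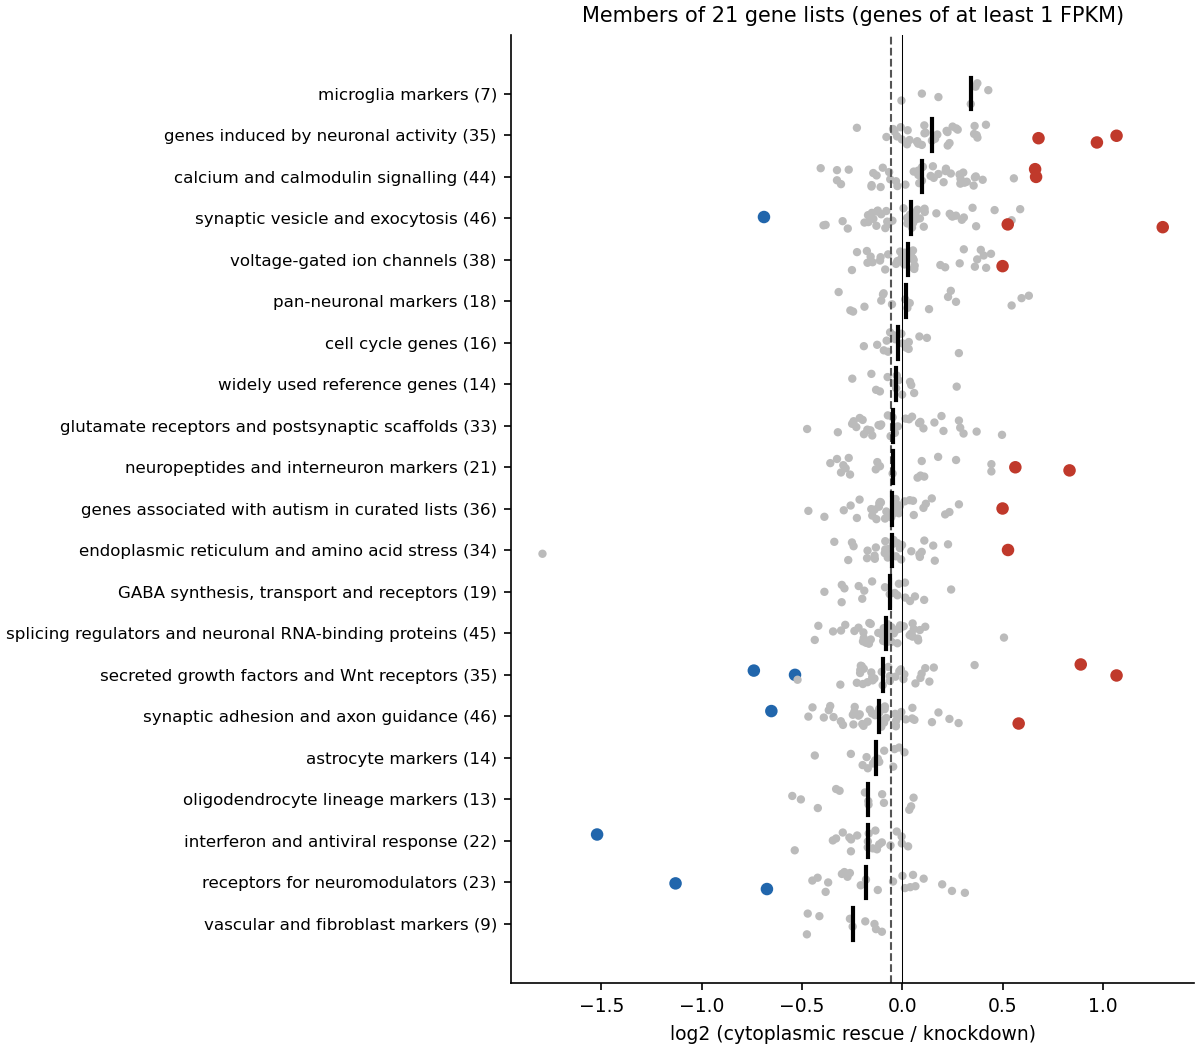
Each point is the log2 ratio of cytoplasmic rescue over knockdown (horizontal axis) of a member of 1 of 21 gene lists with at least 1 FPKM, the number of members being given beside the list name. Red and blue points passed the authors' q below 0.05, black bars are list medians, and the dashed line is the median of all genes at -0.06; the uncalled point at -1.79 in the stress list is Pdia4, whose standard error was 11.6.

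**Figure D3:**
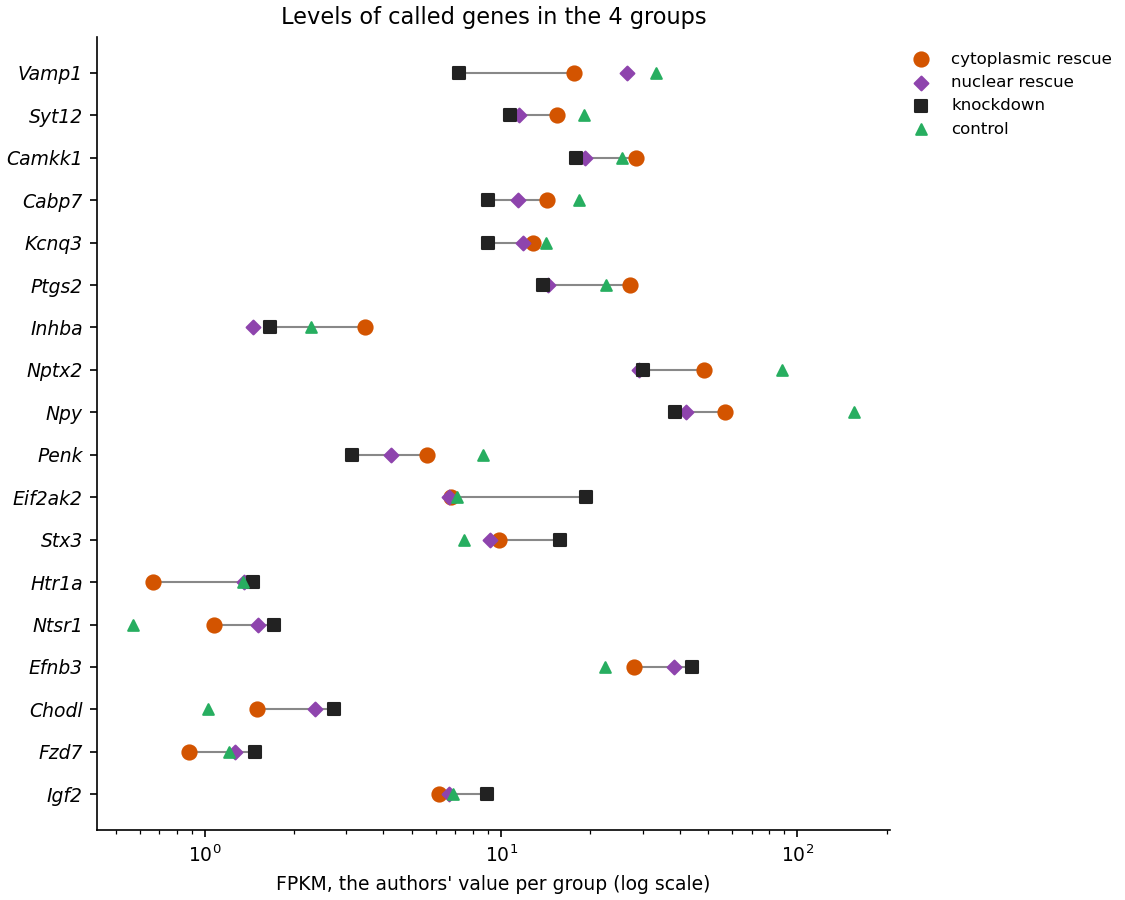
FPKM of 18 called genes is shown in the 4 groups on a log axis, with a line joining cytoplasmic rescue and knockdown. For Eif2ak2 and Stx3 both rescues lie near the control, whereas for Ptgs2 and Nptx2 the nuclear rescue lies near the knockdown. For Htr1a the nuclear rescue, the knockdown and the control lie close together, and the cytoplasmic rescue is lower.

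Long noncoding RNAs and pseudogenes were frequent among the rises. Of 274 long noncoding RNA genes, 9 rose and none fell, which is 3.28%, whereas 36 of 11832 protein-coding genes rose (0.304%). Another 3 of 61 pseudogenes rose. The named ones 4932411L15 and 4930470H14Rik had 10.1 and 23.6 FPKM in the cytoplasmic rescue, 5.79 and 14.9 in the nuclear rescue, 5.20 and 12.7 in the knockdown, and 5.81 and 14.2 in the control. The pseudogene Gm6300 had 7.47 FPKM in the cytoplasmic rescue, 4.42 in the nuclear rescue, 4.16 in the knockdown and 4.68 in the control. The level was highest in the cytoplasmic rescue for each of these 12 genes, 110% to 173% of the control. That order was also seen in 27 of the 36 protein-coding rises. All of these genes were selected on a high level in the cytoplasmic rescue, so the order partly follows from the selection. Over all long noncoding RNA genes the median log2 ratio was -0.05, against -0.06 over protein-coding genes. The shares above 0 were 40.9% and 30.3%.

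The imprinted antisense transcript Kcnq1ot1 had 1.91 FPKM in the cytoplasmic rescue, 1.22 in the nuclear rescue, 1.17 in the knockdown and 1.23 in the control. Ipw, an imprinted noncoding RNA of the Prader-Willi region, had 273 FPKM in the cytoplasmic rescue, 194 in the nuclear rescue, 183 in the knockdown and 206 in the control, at a locus that overlaps Snord116. These 2 were chosen after their values were seen. Among other classes of noncoding RNA, 45 of 69 small nucleolar RNA genes were above 0 and none was called, with a summed level of 39085 FPKM in the cytoplasmic rescue and 28380 in the knockdown. FPKM of such short genes had wide errors. Rmrp, the RNA of the mitochondrial RNA-processing endonuclease, had 2879 FPKM in the cytoplasmic rescue, 2990 in the nuclear rescue, 2007 in the knockdown and 2370 in the control, and was not called either (q = 0.12 in the authors' deposited table). The part of RNA composition of the libraries in these rises was not tested.

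**Figure D4:**
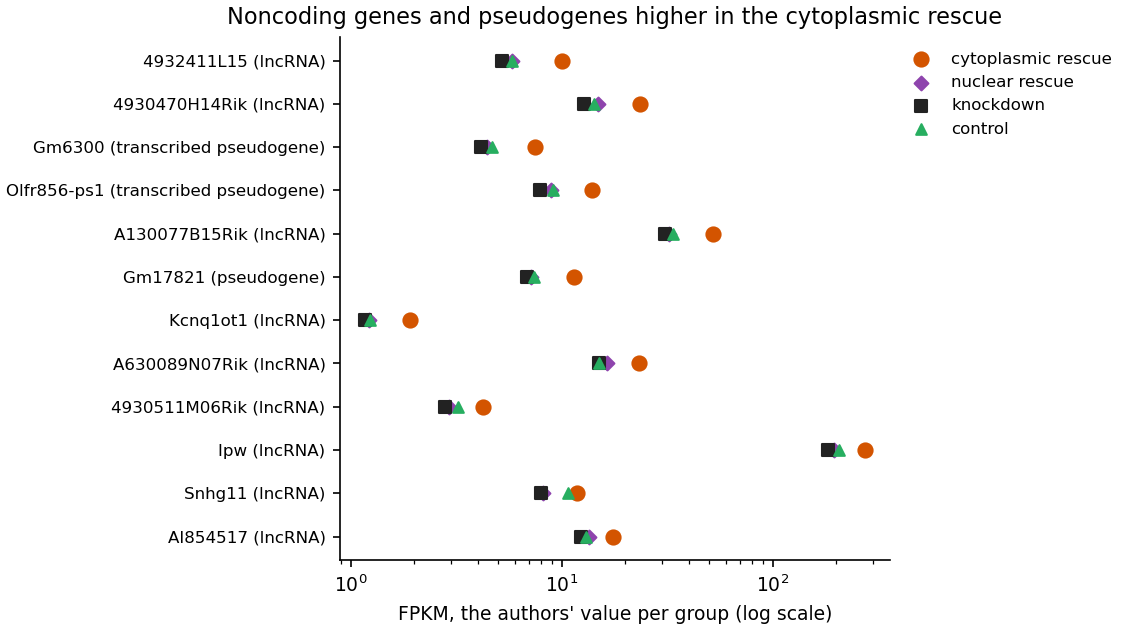
FPKM of the 12 long noncoding RNAs and pseudogenes that rose in the cytoplasmic rescue is shown in the 4 groups on a log axis. In each of them the cytoplasmic rescue is the rightmost point, at 110% to 173% of the control, and the other 3 groups lie close together except in Snhg11.

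The Rbfox motif was counted in 3′ UTRs because cytoplasmic Rbfox1 is known to bind there. The longest annotated 3′ UTR of each gene in GENCODE M21 (build GRCm38) was searched on the sense strand for GCATG and for TGCATG, the longer form always containing the shorter. A GCATG occurred in 29 of 35 risen genes with such a UTR (82.9%, Rbfox1 left out), in 15 of 24 fallen genes (62.5%) and in 66.2% of all 10794 genes. Its frequency was 1.52 per 1000 nt in risen, 0.705 in fallen and 0.979 in all genes. TGCATG occurred in 24 of the 35 risen genes (68.6%), 11 of the 24 fallen genes (45.8%) and 40.1% of all genes. The frequency of TGCATG per 1000 nt was 0.655, 0.318 and 0.354 in the same order. The 35 risen genes included A630089N07Rik and Snhg11, counted above as long noncoding RNAs, for which GENCODE M21 holds a coding transcript. Risen genes also had longer UTRs, with a median of 1929 nt, against 1441 nt over all. A range of UTR lengths, 1500 to 2500 nt, was chosen after the values were seen. In it, 8 of 10 risen and 6 of 7 fallen genes held GCATG, against 82.5% of all. TGCATG was held there by 6 of 10 risen and 5 of 7 fallen genes, against 47.0% of all. Per 1000 nt, GCATG in this range numbered 1.28 in risen, 0.854 in fallen and 0.963 in all genes. TGCATG numbered 0.479, 0.498 and 0.340 in the same order, so it was not more frequent in risen than in fallen genes there.

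Grouped by the number of GCATG matches, 17 of 1894 genes with 4 or more rose (0.898%), against 6 of 3648 with none (0.164%). Median UTR lengths in these groups were 3712 and 586 nt, so motif number and length changed together, and no test was made of either. The 3′ UTR of Vamp1 held 7 GCATG, 4 of them within TGCATG. These are shown with 10 flanking bases and TGCATG in capitals, named by the position of the motif after the stop codon, since Vamp1 had the largest rise among called genes of at least 1 FPKM that no vector supplied. For Camkk1, a gene of the calcium list, 2 of its 3 TGCATG follow, the other lying too near the end of the UTR for its flank.
Vamp1 850: ttgctgccagTGCATGtgtatatgca
Vamp1 1346: aaatgagagcTGCATGgcaagactcc
Vamp1 1621: tcactcccttTGCATGctgtgtttgt
Vamp1 2265: accacccatgTGCATGagcaaatatg
Camkk1 141: cccattgtgcTGCATGacctgcgcac
Camkk1 1309: acagcacactTGCATGtctcatactg

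By contrast, no GCATG was found in the annotated 3′ UTRs of Nptx2, Penk, Areg, Psg28, Grk4 and A630089N07Rik, which also rose. The UTRs of Grk4 and A630089N07Rik were 2126 and 1716 nt long. Ptgs2 had 2, Inhba 4, Cabp7 4 and Kcnq3 14 within 8784 nt.

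The change in the cytoplasmic rescue was then set against that in the nuclear rescue. Both were measured over the same knockdown values. The difference of the log2 changes was tested by a z test with Benjamini-Hochberg adjustment in which the variances were added, which enters the error of the shared knockdown in both terms. Of 12457 genes, 4 differed (0.0321%), and 114 had an unadjusted p below 0.05. Ptgs2 was the gene with the larger change in the cytoplasmic rescue, where its log2 change was 0.97, against 0.06 in the nuclear rescue (adjusted p = 0.0259). Rbfox1 had a log2 change of 3.05 in the cytoplasmic rescue, against 4.30 in the nuclear rescue (adjusted p = 0.000751), which is a difference in the vector-supplied gene itself. Iyd, an iodotyrosine deiodinase, had 0.510 FPKM in the cytoplasmic rescue, 1.83 in the nuclear rescue and 0.906 in the knockdown (adjusted p = 0.00600). Gm20594 had 8.57 FPKM in the cytoplasmic rescue, 29.5 in the nuclear rescue and 10.4 in the knockdown (adjusted p = 0.000751). For Htr1a, Inhba and Nptx2 the adjusted p of the difference was 0.253, 0.181 and 0.73. With the larger of the 2 errors in place of the added variances it was 0.000291, 0.000354 and 0.00232, so the call for these 3 genes depends on how the shared error is counted.

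Cassette exons changed as well, most of them toward inclusion. The splicing table holds only exons the authors listed as changed, each with an inclusion ratio (the share of transcripts that include the exon) per group. Every listed exon differed by at least 0.1 in that ratio, with a p in the authors' deposited table of at most 9.63e-07. Of its 150 exons in 146 genes, 89 were more and 61 less included in the cytoplasmic rescue. Read support was tested on inclusion and skipping reads per exon (Fisher's exact test, two-sided, Benjamini-Hochberg over the 150). Inclusion reads were summed over both junctions of the exon and set against the junction that skips it. This gives inclusion more weight at any exon length, so the share is not the inclusion ratio. The test pools the samples and covers counting error only. It was run on exons the authors had already selected in the same libraries, so its p-values follow that selection and describe read support only. It called 50 exons, 33.3% of those listed, and 71 had an unadjusted p below 0.05. The share of inclusion reads was higher in the rescue for 36 (24.0%) and lower for 14 (9.33%). Median junction reads per listed exon were 151.5 in the rescue and 153.5 in the knockdown. By the inclusion ratio, 35 of the 50 were more included, by 0.104 to 0.331, and 15 less, by 0.103 to 0.274. The lower ends of both ranges lie at the limit of the authors' list. Gria2 was the exception in sign, with a ratio of 0.712 in the rescue and 0.825 in the knockdown but an inclusion share of junction reads of 100% in the rescue and 98.2% in the knockdown.

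Many of the called exons had a length that would preserve a reading frame, though how many lie in coding sequence was not counted. Lengths were a multiple of 3 in 37 of the 50 (74.0%), against 82 of the 150 listed (54.7%), and 21 were under 50 nt (42.0%, against 30.7%). Where the authors also listed the exon against the control, a control ratio can be set beside the rescue. Such a ratio was present for 25 of the 50 called exons. These were listed as changed in both comparisons, which share the knockdown values. The selection therefore favours a rescue near the control, and the counts are descriptive only. Of 20 such exons with more inclusion, the rescue was within 0.05 of the control for 14, more than 0.05 short of it for 3 and beyond it for 3. Of 5 with less inclusion, the rescue was within 0.05 of the control for 2 and more than 0.05 short of it for 3.

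Exons of calmodulin-dependent kinases were among the best supported. Camkk2, calcium/calmodulin-dependent kinase kinase beta, listed in the table as mKIAA0787, has a 43-nt exon near its 3′ end. It had an inclusion ratio of 0.657 in the cytoplasmic rescue, 0.813 in the nuclear rescue, 0.326 in the knockdown and 0.686 in the control. Its junction share was 77.5% in the rescue (95% exact (Clopper-Pearson) interval 74.6 to 80.2%, 883 reads), against 44.2% in the knockdown (39.7 to 48.7%, 491 reads). That is the largest ratio difference of the 50 (adjusted p = 4.01e-33, Fisher's exact test). In Camk2g, the gamma subunit of the kinase that decodes calcium at synapses, a 63-nt exon had a ratio of 0.410 in the cytoplasmic rescue, 0.599 in the nuclear rescue, 0.137 in the knockdown and 0.352 in the control. The 42-nt exon of the delta subunit Camk2d, not among the 12 best supported, had 0.545 in the rescue, 0.350 in the knockdown and 0.508 in the control. Camta1, a calmodulin-binding transcription activator, had 0.203 in the cytoplasmic rescue, 0.453 in the nuclear rescue and 0.047 in the knockdown for an exon of 31 nt.

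Coding sequence from GENCODE M21 (GRCm38), matched to the table by chromosome, strand and exon and intron lengths, is printed here for 3 kinase exons, for that of the channel gene Kcnd3 and for that of Ndrg4, which had the deepest coverage. The cassette exon is in capitals, with 15 bases of each neighbouring exon in lower case.
Camkk2 exon: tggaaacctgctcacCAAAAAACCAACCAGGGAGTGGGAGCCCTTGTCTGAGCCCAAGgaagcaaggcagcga
Camk2g exon: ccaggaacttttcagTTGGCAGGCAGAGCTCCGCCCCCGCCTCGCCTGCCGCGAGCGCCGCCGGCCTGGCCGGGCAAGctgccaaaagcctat
Camk2d exon: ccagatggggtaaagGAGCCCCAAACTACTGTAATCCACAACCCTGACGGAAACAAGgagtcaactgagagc
Kcnd3 exon: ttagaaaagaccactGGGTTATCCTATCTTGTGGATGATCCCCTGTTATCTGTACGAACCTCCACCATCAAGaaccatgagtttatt
Ndrg4 exon: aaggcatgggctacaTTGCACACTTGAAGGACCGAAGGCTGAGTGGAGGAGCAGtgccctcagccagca

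Potassium channel exons moved in opposite directions. Kcnip2, a calcium-binding subunit of A-type channels, included a 54-nt exon at 0.901 in the rescue, 0.772 in the knockdown and 0.927 in the control. Kcnd3, the pore subunit Kv4.3 that such proteins bind, lost inclusion of a 57-nt exon, with 0.537 in the cytoplasmic rescue, 0.309 in the nuclear rescue, 0.743 in the knockdown and 0.466 in the control. Its junction share was 77.4% in the rescue (72.8 to 81.6%, 363 reads), against 90.2% in the knockdown (87.1 to 92.8%, 440 reads). The 18-nt exon of Cacna2d3, an auxiliary calcium channel subunit, had 0.786 in the rescue and 0.669 in the knockdown.

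Several exons of membrane traffic and the cytoskeleton were among the 12 best supported. Ndrg4, a brain-expressed NDRG protein, had the deepest coverage, and its 39-nt exon had a ratio of 0.761 in the cytoplasmic rescue, 0.829 in the nuclear rescue, 0.630 in the knockdown and 0.848 in the control. Junction reads gave 80.5% of 11901 reads in the rescue and 70.9% of 12097 in the knockdown (adjusted p = 1.35e-65, Fisher's exact test). Stx3, whose total level fell, had a 46-nt exon at 0.302 in the cytoplasmic rescue, 0.478 in the nuclear rescue, 0.102 in the knockdown and 0.563 in the control. The 18-nt exon of Dync1i2 (listed as Dncic2), a dynein intermediate chain, had 0.203 in the rescue and 0.048 in the knockdown. Epb4.1l3, a protein that links membrane to cytoskeleton, had 0.752 in the rescue and 0.607 in the knockdown for an exon of 117 nt. Madd (listed as mKIAA0358), a Rab exchange factor, had 0.442 in the rescue and 0.296 in the knockdown for an exon of 60 nt. Outside those 12, Kif21a, a kinesin, had the shortest called exon at 15 nt (adjusted p = 0.0144, Fisher's exact test). Its ratio was 0.711 in the rescue and 0.543 in the knockdown.

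Exons of nuclear proteins, and 1 in Oscp1, were also among the 12 best supported. The 27-nt exon of Prpf18, a splicing factor, had 0.408 in the cytoplasmic rescue, 0.501 in the nuclear rescue, 0.183 in the knockdown and 0.366 in the control. The 18-nt exon of Ash2l, a subunit of histone methyltransferase complexes, went the other way, with 0.372 in the cytoplasmic rescue, 0.251 in the nuclear rescue, 0.506 in the knockdown and 0.379 in the control. Oscp1 had 0.297 in the rescue and 0.152 in the knockdown for an exon of 30 nt. The splice ratios of the rescue thus lay within 0.05 of the control for Prpf18, Ash2l, Oscp1 and Camkk2, and farther off for Stx3 and Ndrg4.

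Other called exons with more inclusion were in the axon guidance receptor Robo2 (0.226 in the rescue, 0.109 in the knockdown) and the autophagy gene Atg16l1 (0.815 in the rescue, 0.654 in the knockdown). They were also in Synj2, Eml1, Cdc42bpa, Arhgap1, Gopc, Tsc2, Fchsd2, Zfp277, 2210404J11Rik, Rbm34, Sorbs2, Sgip1, Zfp2, Trdmt1, Sgce, Dlgap4 and 5430435G22Rik. Those with less inclusion were in Dclk1 (0.390 in the rescue, 0.509 in the knockdown), Kirrel3 (0.527 in the rescue, 0.703 in the knockdown), Rims1 (0.876 in the rescue, 0.999 in the knockdown) and Brsk2 (0.379 in the rescue, 0.538 in the knockdown). Wbp2, Gapdhs, Mtfr1, Gpcpd1, Mark2, Rfx3, mKIAA0897 and Map4k2 likewise had less inclusion.

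**Figure D5:**
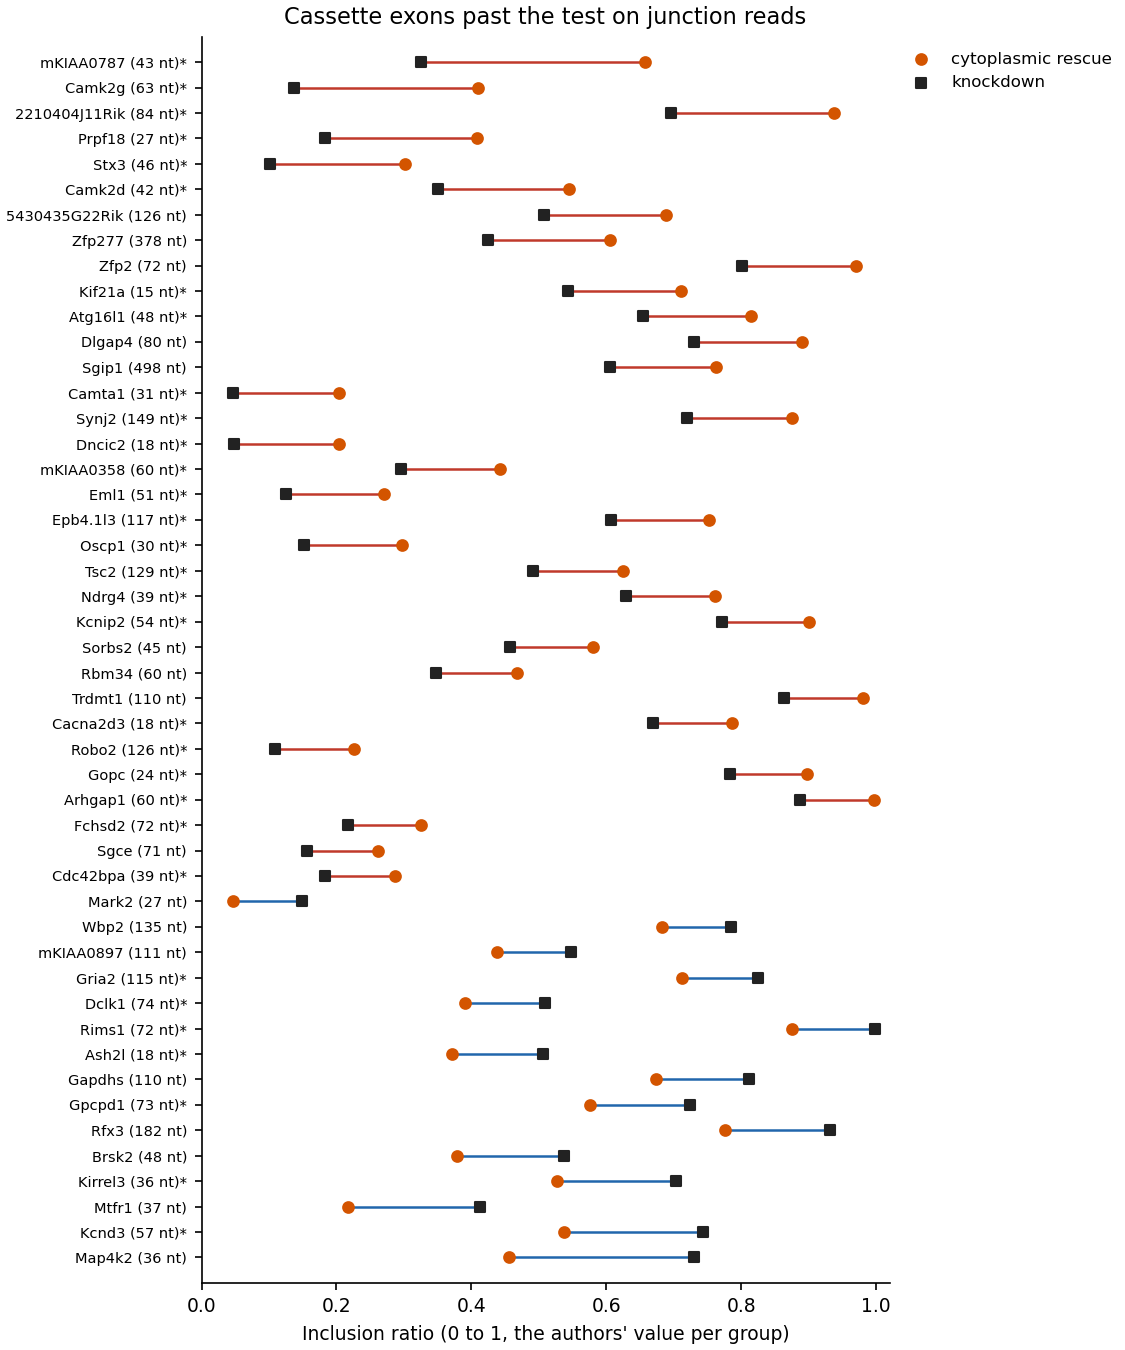
Inclusion ratios of 48 of the exons past the test on junction reads are shown in the cytoplasmic rescue (circles) and the knockdown (squares), joined by red lines for more and blue lines for less inclusion and ordered by the difference. Exon lengths stand beside the symbols as the table gives them (mKIAA0787 is Camkk2, Dncic2 is Dync1i2, mKIAA0358 is Madd), and an asterisk marks the 31 of these that also passed when inclusion reads were divided by 2.

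Most genes with a called exon were not called for their level, as was so for genes in general. Of these genes, 45 were matched in the expression table, none rose and 1, Stx3, fell (2.22% called, against 0.583% of all genes tested), and their median log2 ratio was -0.07. Camkk1 rose in level and its paralog Camkk2 changed in splicing.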

How the data were processed

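The submitters' processing notes name CASAVA, Cufflinks and build mm9, with versions not given in the sources used here. In the expression tables the authors deposited 1 FPKM value per group, a fold change on the log2 scale with its test statistic (held as a score, since infinite values are written as a huge number), and p-values and q-values. The authors deposited inclusion ratios as a fraction per group for cassette exons they listed, a difference score and counts of junction reads, per the file names made with SpliceTrap. Another 78 columns of group values in the splicing tables were left out. Depth per sample is unknown, since no library total was analysed here; intervals (Clopper-Pearson, 95%) cover counting error only.

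Log2 ratios were recomputed from FPKM, with a minimum of 1 in either group. Calls are the authors' q below 0.05; the planned limma test was not run because values per library were not used here. The implied standard error is the log2 ratio over the test statistic. Junction reads were tested by Fisher's exact test (scipy 1.17.1) and rescues by a z test, both tested on simulated data. The simulated log2 changes were drawn independently, without the shared knockdown, and the simulated reads had no spread between samples. The simulation therefore does not cover the shared error or that spread. Named genes are the 12 largest rises and falls among called genes, called list members, Rbfox genes, leading cell markers and called differences; exons, those past the test, of which some are not reported here. Gene classes came from RefSeq symbols, matched for 12357 of 12526 genes. Exon sequences were matched for 140 of 150 exons. Members and the 22 gene lists were chosen with earlier results of these data known.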

Additional observations from a re-analysis of the deposited data

Results flagged for a closer look

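Between the cytoplasmic and the nuclear rescue, 4 genes differed in their change over the shared knockdown values by a z test of that difference with Benjamini-Hochberg adjustment. Ptgs2 differed by 0.91 on the log2 scale, cytoplasmic minus nuclear (standard error 0.205, adjusted p = 0.0259). Rbfox1 differed by -1.25 (adjusted p = 0.000751), Iyd by -1.84 (adjusted p = 0.00600) and Gm20594 by -1.78 (adjusted p = 0.000751). Rbfox1 RNA itself thus differed between the rescues, at 16.1 FPKM in the cytoplasmic and 38.2 in the nuclear rescue, and isoform and amount cannot be told apart. Iyd had under 1 FPKM in the cytoplasmic rescue and in the knockdown.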

How the results depend on the processing

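The calls rest on the authors' errors and on pooled reads, not on a spread between samples. At q below 0.01 there were 28 rises and 12 falls. With q recomputed within this table there were 34 rises and 14 falls, against 48 and 25 as reported. A minimum of 5 FPKM left 37 rises and 15 falls. Where the log2(FPKM + 1) change had to reach 0.5 there were 35 and 13. Recomputing q lost 25 of the 73 calls. Among the named genes these were Npy, Kcnq3, Syt12, Cabp7, Areg, Herpud1, Sema4f, Psg28, Igf2 and Ntsr1. Over all lists, 7 members rose and 5 fell at q below 0.01, against 14 and 8. For exons, an adjusted p below 0.01 left 22 with more and 4 with less inclusion, and a ratio difference of at least 0.2 left 6 and 2. Inclusion reads were summed over 2 junctions and skipping reads over 1 for exons of any length. A read that crosses both junctions of a short exon also counts for each. Dividing inclusion reads by 2 left 27 exons with more and 6 with less inclusion. With the larger error alone, 25 genes differed between the rescues, against 4. Centring on the median of all genes turned list medians near 0 positive, to 0.0522 for the Rbfox family, 0.0158 for glutamate synapse, 0.00799 for GABA synapse, 0.00137 for autism-related, 0.0387 for cell cycle and 0.0291 for reference genes. It turned no called gene. No paired analysis was possible because the deposited columns hold 1 value per group and carry no replicate number, and leaving out a replicate was not run for the same reason.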
